A study of Mus musculus with 15 samples.

Results

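The genes described here carry cholesterol metabolism in the mouse ovary. There are 33 of them, taken by symbol from the enzymes of cholesterol synthesis, the proteins that control them, and the proteins of sterol uptake, storage and export. All 33 were among the 24656 genes listed and passed a filter on low values that asked for 10 or more in 5 or more of the 15 libraries, as did 17569 genes in all. They fall into 5 steps: 8 enzymes from acetyl-CoA to squalene, 11 from squalene to cholesterol, 4 genes of SREBP control, 6 of uptake and storage, and 4 of efflux. The mice were UM-HET3, a cross-bred stock in which every animal is genetically distinct, and RNA was taken from the whole ovary. Mice were randomised at 6 months of age into controls that were 6 months old, controls that reached 12 months, and mice of 12 months that had been given canagliflozin, an inhibitor of the renal glucose transporter SGLT2, from month 6 to month 12. Each group had 5 libraries, and the labels name no dose, cycle stage or batch. The labels describe RNA extraction, from 1 ovary per mouse, for the 12-month groups only.

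Cells build cholesterol from acetyl-CoA through mevalonate, isoprenoids, squalene and lanosterol. The transcription factor SREBP2 switches these enzymes on: SCAP carries it out of the endoplasmic reticulum when sterols are scarce, and the INSIG proteins hold it back when sterols are plentiful. The LXR receptors respond to oxysterols and switch on the exporters ABCA1 and ABCG1, and also Mylip, whose protein marks lipoprotein receptors for breakdown. In the ovary cholesterol is the substrate of progesterone, and luteal cells draw on lipoprotein uptake through SCARB1, on stored esters and on their own synthesis.

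The bases before the start sites of 4 members are shown because synthesis genes share a short motif there. Promoter windows from RefSeq (GRCm38.p6) were matched for 26 of the 33 members, and the 250 bases upstream of each start were searched on both strands. The letters CCAAT, the box to which the factor NF-Y binds, were present for 15 of 16 matched synthesis genes (93.8%) and 6 of 10 other members, against 37.5% of 27025 genes. Acat2 was the synthesis gene without it. A gene with more than 1 start counted if any of them had the motif. The 27025 genes were not limited to those that passed the filter. The sterol response element, searched as TCACNCCAC, was present for Hmgcs1 among the 26 and for 1.22% of all genes. In the sequences, 5′ to 3′ on the strand of the gene, capitals mark CCAAT, read as ATTGG on the other strand, and in Hmgcs1 also the sterol response element. Hmgcs1 lies at chr13:119690101-119690350 (plus strand) and Idi1 at chr13:8885356-8885605 (plus strand). Ebp lies at chrX:8193513-8193762 (minus strand) and Mylip at chr13:45389492-45389741 (plus strand).
Hmgcs1: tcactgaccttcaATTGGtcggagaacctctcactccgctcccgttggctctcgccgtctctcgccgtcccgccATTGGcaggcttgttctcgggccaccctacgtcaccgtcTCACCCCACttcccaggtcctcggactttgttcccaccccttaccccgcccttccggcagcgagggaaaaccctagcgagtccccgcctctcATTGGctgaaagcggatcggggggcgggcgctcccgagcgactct
Idi1: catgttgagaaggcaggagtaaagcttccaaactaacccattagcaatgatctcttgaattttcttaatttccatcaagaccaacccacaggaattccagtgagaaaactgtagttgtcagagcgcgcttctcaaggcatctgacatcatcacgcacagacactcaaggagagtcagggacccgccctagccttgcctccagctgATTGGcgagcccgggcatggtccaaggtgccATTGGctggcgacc
Ebp: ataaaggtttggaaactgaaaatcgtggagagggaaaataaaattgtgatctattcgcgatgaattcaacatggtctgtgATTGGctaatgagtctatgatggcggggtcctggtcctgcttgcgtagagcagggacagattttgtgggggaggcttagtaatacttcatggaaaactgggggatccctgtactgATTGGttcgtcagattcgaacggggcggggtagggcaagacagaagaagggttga
Mylip: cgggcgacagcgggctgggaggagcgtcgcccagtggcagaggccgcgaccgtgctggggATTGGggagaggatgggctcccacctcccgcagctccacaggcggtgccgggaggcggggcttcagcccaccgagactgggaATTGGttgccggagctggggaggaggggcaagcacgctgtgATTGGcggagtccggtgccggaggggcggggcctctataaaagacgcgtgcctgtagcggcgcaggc
Mylip, which is not a synthesis gene, holds 3 of the boxes, so the motif is not limited to the enzymes. GGGCGG, the GC box of many housekeeping promoters, was also present for 15 of 16 synthesis genes and for 7 of 10 others, against 35.4% of genes. CACGTG, the E-box, was present for Abca1, Dhcr7, Hsd17b7, Insig1, Sc5d and Scap, 6 of 26, against 6.86%. The LXR element of direct repeats spaced by a short gap (DR4), in its strictest form, was present for 0 of 26 and for 0.0148% of genes.

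Values are size-factor-normalised reads, and depth recovered from them was 8.47 to 13.6 M reads per library (M, 1000000 reads). Ovarian cell types were present in every library: Fshr of granulosa cells ran from 157 to 746, Gdf9 of oocytes from 365 to 849, and Cyp11a1, the first enzyme of steroid synthesis, from 37107 to 124330. In whole ovaries fewer cells of a type and less RNA per cell cannot be told apart. The spans of 11 of the 33 members overlap another RefSeq gene, among them Fdft1 with Ctsb, Tm7sf2 with Vps51, Npc1 with Rmc1 and Nr1h3 with Acp2. Whether counting used strand is not given in the sources used here, so those values are less certain.

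Per kilobase of exon, the transcript of Scarb1 stood above that of every enzyme. Scarb1, the receptor for high-density lipoprotein, had a level of 8290 reads per kb over the 15 libraries. Next came Fdps at 2584, which makes farnesyl diphosphate, then Hmgcs1 at 1909, which makes HMG-CoA, and Hsd17b7 at 1604, a sterol ketone reductase that can also make estradiol. The level of Hsd17b7 depended on the group, at 2854 with canagliflozin, 1551 in the 12-month and 407 in the 6-month controls. Msmo1, which removes methyl groups from the sterol ring, stood at 1450.0. Storage and handling genes followed, with Soat1, which esterifies cholesterol, at 1207 and Npc2, which carries it out of the lysosome with NPC1, at 1119. Dhcr7, the reductase near the end of the path, stood at 1102. The mevalonate kinases were low, Pmvk at 217 and Mvk at 201 reads per kb. The lowest members were Lbr, a sterol reductase of the nuclear envelope, at 96.3, Nr1h3, which encodes LXR alpha, at 85.8, Mylip at 67.7 and Abcg1, the second exporter, at 28.5. Abca1, the main exporter, stood at 208 and Nr1h2, which encodes LXR beta, at 547.

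**Figure D1:**
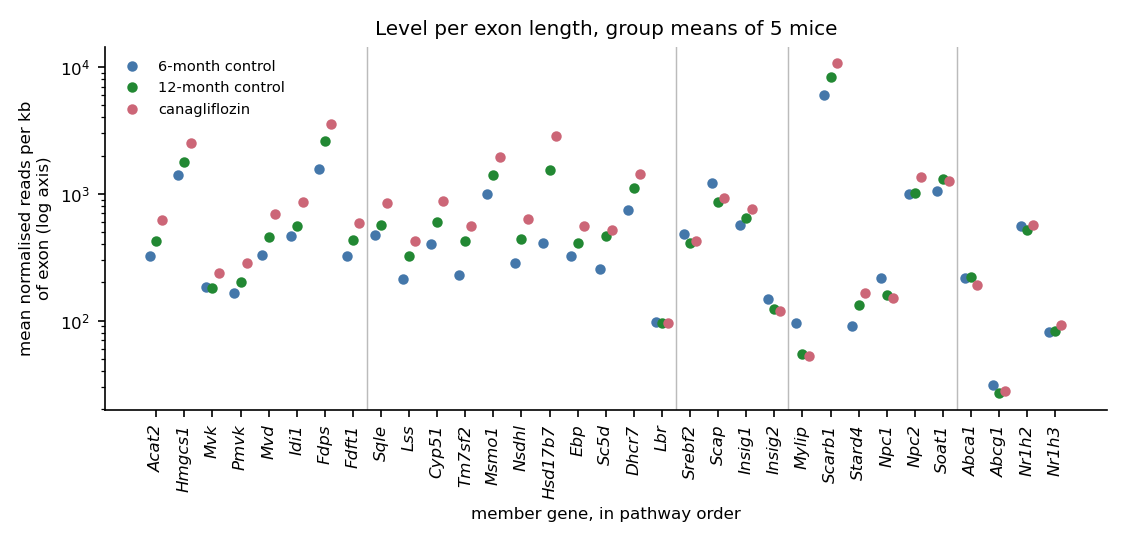
Mean normalised reads per kilobase of exon (log axis) of the 33 members in pathway order, with 1 point for each group mean of 5 mice, coloured by group, and grey lines between the steps. Scarb1 stands highest in each group and Abcg1 lowest.

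The enzymes differed more between mice than most genes did. Among the 19 synthesis genes the median SD between mice of a group was 0.74 on the log2 scale, against 0.27 for all genes and 0.20 for the 9942 genes at least as abundant as the lowest member. The same median was 0.37 for uptake and storage, 0.28 for efflux and 0.26 for SREBP control. Some marker lists spread more, with 1.78 for red cell and 1.06 for fat cell markers. Hsd17b7 had the widest range: replicates 1 to 5 of the canagliflozin group measured 983, 31815, 13692, 5434 and 20089.6. Its 12-month controls measured 3668, 1255, 18241, 3145 and 12833, and its 6-month controls 3508, 383, 261, 2017 and 4094. The highest mouse exceeded the lowest 122-fold, and the 3 groups overlapped. Lss, which closes the ring to lanosterol, ranged 8.14-fold, Sqle, which forms squalene epoxide, 7.96-fold, and Tm7sf2, another sterol reductase, 7.73-fold. Nr1h2 ranged 1.34-fold.

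The enzymes were high or low together in a mouse. With each group's mean removed, all 171 pairs of synthesis genes had a positive correlation over the 15 libraries, with a median r of 0.84, against -0.00065 over all pairs of genes tested. Other lists also moved together, with a median r of 0.96 for red cell markers, 0.80 for oocyte markers and 0.60 for fatty acid targets of SREBP. These pairs share libraries and are given as a description. The lowest r was that of Lbr with other enzymes, and without Lbr the median of 153 pairs was 0.85 and the lowest 0.58. The same mice stood at the ends for most enzymes. Canagliflozin replicate 1 was the lowest of its group in 18 of 19 and replicate 2 the highest in 13. These libraries also had the fewest recovered reads, 10.3 M and 8.47 M, against 11.3 to 13.6 M in the others. The part of depth was not tested. In the 12-month controls replicate 2 was the lowest in 15 of 19 and replicate 3 the highest in 16. In the 6-month controls replicate 3 was the lowest in 15 and replicate 5 the highest in 11.

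**Figure D2:**
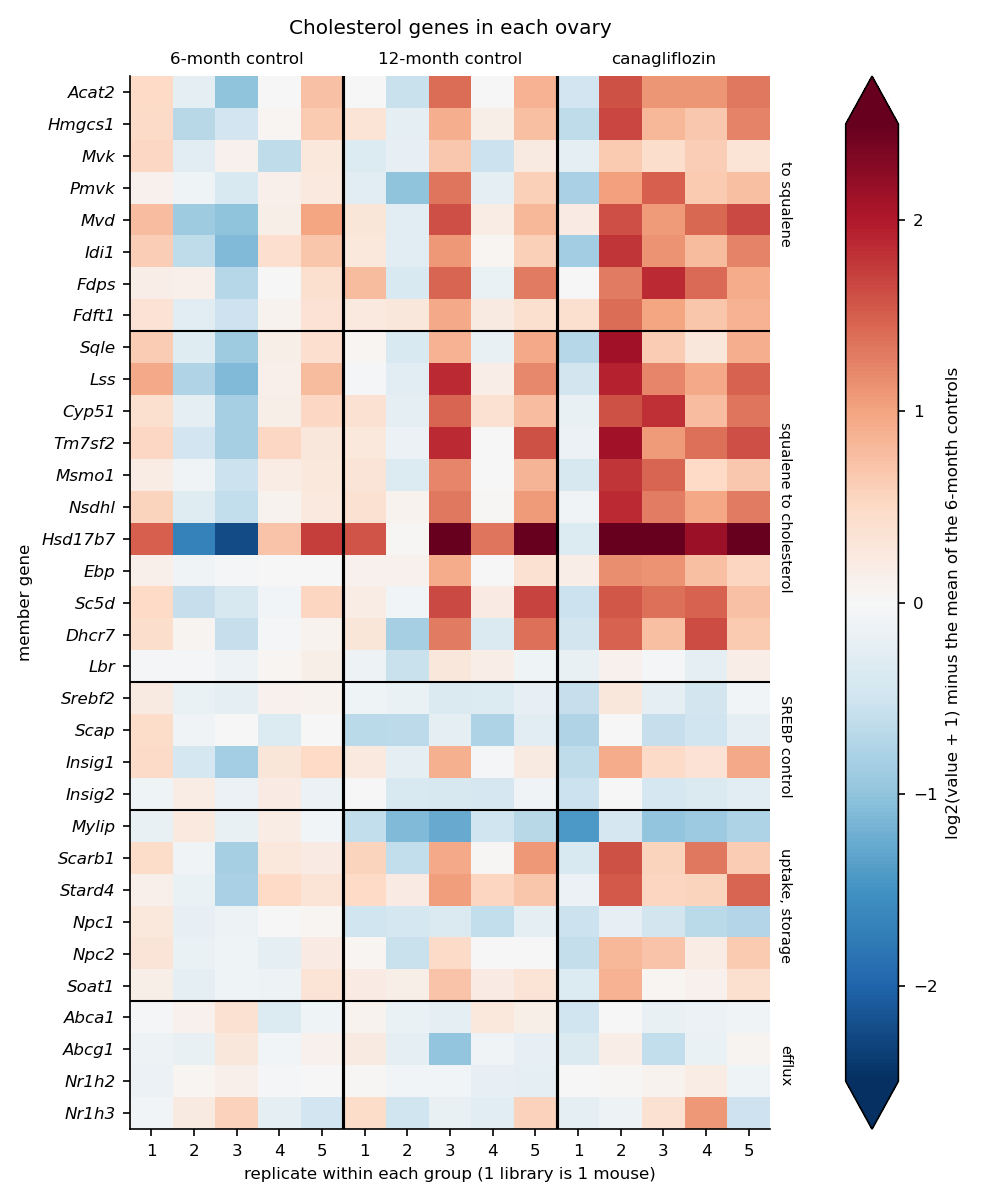
Heatmap of log2(value + 1) of the 33 members (rows, by step) in each of 15 libraries (columns, by group), minus the mean of the 6-month controls, with red for higher and blue for lower and the colours capped at both ends. The enzymes are high or low as blocks within a column, with canagliflozin replicate 1 and 6-month control replicate 3 low, and the efflux rows vary less.

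The mean of log2(value + 1) over the 19 enzymes gives each mouse a level of synthesis transcripts, not of synthesis itself. In replicates 1 to 5 it was 9.63, 11.6, 11.1, 10.9 and 11.1 in the canagliflozin group. It was 10.2, 9.66, 11.3, 10.005 and 10.9 in the 12-month controls and 10.4, 9.54, 9.23, 10.04 and 10.4 in the 6-month controls. Of the canagliflozin mice, 4 stood above every 6-month control and replicate 1 stood below 3 of them. No test is given for this score, since the members were chosen with results known.

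The comparison of canagliflozin with 12-month controls asks what the drug changed at the same age. No member passed the test: limma called 0 of 33 at an adjusted p under 0.05, and edgeR and DESeq2 also called 0. Over all genes 0.00569% were called, all higher. At an unadjusted p under 0.05, 2 of 33 were higher, Ebp and Fdft1, against 4.77% of all genes, and 0 were lower, against 4.43%. The groups did not overlap for 0 members, against 0.586% of all genes for higher and 0.467% for lower. All 19 enzymes had a higher mean of log2 values with the drug, with a median log2 difference of 0.45, against -0.0019 over all genes. The 19 vary together between mice, so their signs are not independent. That median was 0.77 without canagliflozin replicate 1, 0.29 without canagliflozin replicate 2 and 0.27 without 12-month control replicate 2.

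Fdft1, squalene synthase, the first enzyme committed to sterols, measured 1537, 3066, 2320.4, 1872 and 2114 in canagliflozin replicates 1 to 5. It measured 1385, 1416, 2248, 1352 and 1535 in the 12-month controls. Control replicate 3 made the groups overlap, and the next control, 1535, lay just below the lowest treated mouse. The difference was 0.45 (SE 0.21, 95% interval 0.01 to 0.88) on the log2(value + 1) scale, with a limma adjusted p of 0.538. Ebp, the sterol isomerase, measured 624, 1262, 1227, 939.7 and 808 with the drug and 601, 605, 1062, 553 and 729 without. For Ebp 1 low treated mouse and 1 high control mouse made the overlap, and the difference was 0.45 (SE 0.19, limma adjusted p = 0.514).

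Mvk, mevalonate kinase, measured 304, 557, 484, 549 and 449 with the drug and 279, 310.5, 568, 244 and 416 in the 12-month controls. Nsdhl, which removes a methyl carbon from the sterol ring, measured 565, 2178, 1445, 1164 and 1467 with the drug and 779, 631, 1483, 612 and 1250.4 without. In both genes the groups overlapped over most of their range, and the log2 differences were 0.40 (limma adjusted p = 0.623) and 0.49 (limma adjusted p = 0.668). Differences of the other enzymes ran from 0.03 for Lbr to 0.76 for Hsd17b7 (SE 1.07). The interval of Hsd17b7 ran from -1.54 to 3.05, so these 5 mice a group do not settle the size or sign of its difference. Acat2, the thiolase that opens the path, stood at 0.59, Mvd, which makes isopentenyl diphosphate, at 0.66, and Sc5d, the desaturase, at 0.19.

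No controller of SREBP was called. Insig1, itself a target of SREBP2, measured 922, 2729, 2007, 1845 and 2761 with the drug and 1698, 1208, 2669, 1414 and 1689 in the 12-month controls. Scap measured 3339, 5532, 3759, 3984 and 4792 with the drug and 3534, 3584, 4787, 3295 and 4681 without. Both pairs of groups overlapped, with log2 differences of 0.20 for Insig1 and 0.10 for Scap (limma adjusted p = 0.863 and 0.858). Srebf2, which encodes SREBP2, differed by 0.02 (95% interval -0.28 to 0.32), and Insig2 by -0.06.

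Uptake and storage gave a median log2 difference of 0.06, which ran from -0.079 without canagliflozin replicate 2 to 0.25 without replicate 1. Efflux gave 0.09, which ran from -0.031 without canagliflozin replicate 4 to 0.20 without 12-month control replicate 1. Scarb1 measured 11927, 46497, 22834, 38583 and 23963 with the drug and 22928, 10163, 29696, 15729 and 33031 in the controls. Npc2 measured 2167, 5815, 5362, 3727 and 5153 with the drug and 3371, 2231, 4568, 3219 and 3262 without. For both, canagliflozin replicate 1 was the lowest of its group and replicate 2 the highest, and the differences of 0.34 and 0.37 were within the spread (limma adjusted p = 0.786 and 0.647). Nr1h2 measured 1413, 1456, 1509, 1601 and 1315 with the drug and 1455, 1348, 1348, 1224 and 1197 without, a log2 difference of 0.15 (95% interval -0.02 to 0.32, limma adjusted p = 0.570). Abca1 measured 1544, 2211, 1939, 1984 and 2061 with the drug and 2339, 1966, 1874, 2627 and 2428 without. Its mean was lower with the drug, by a log2 difference of -0.20, with overlapping groups (limma adjusted p = 0.650). Soat1 stood at -0.10, Stard4, a carrier of sterol between membranes, at 0.20 and Nr1h3 at 0.10.

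**Figure D3:**
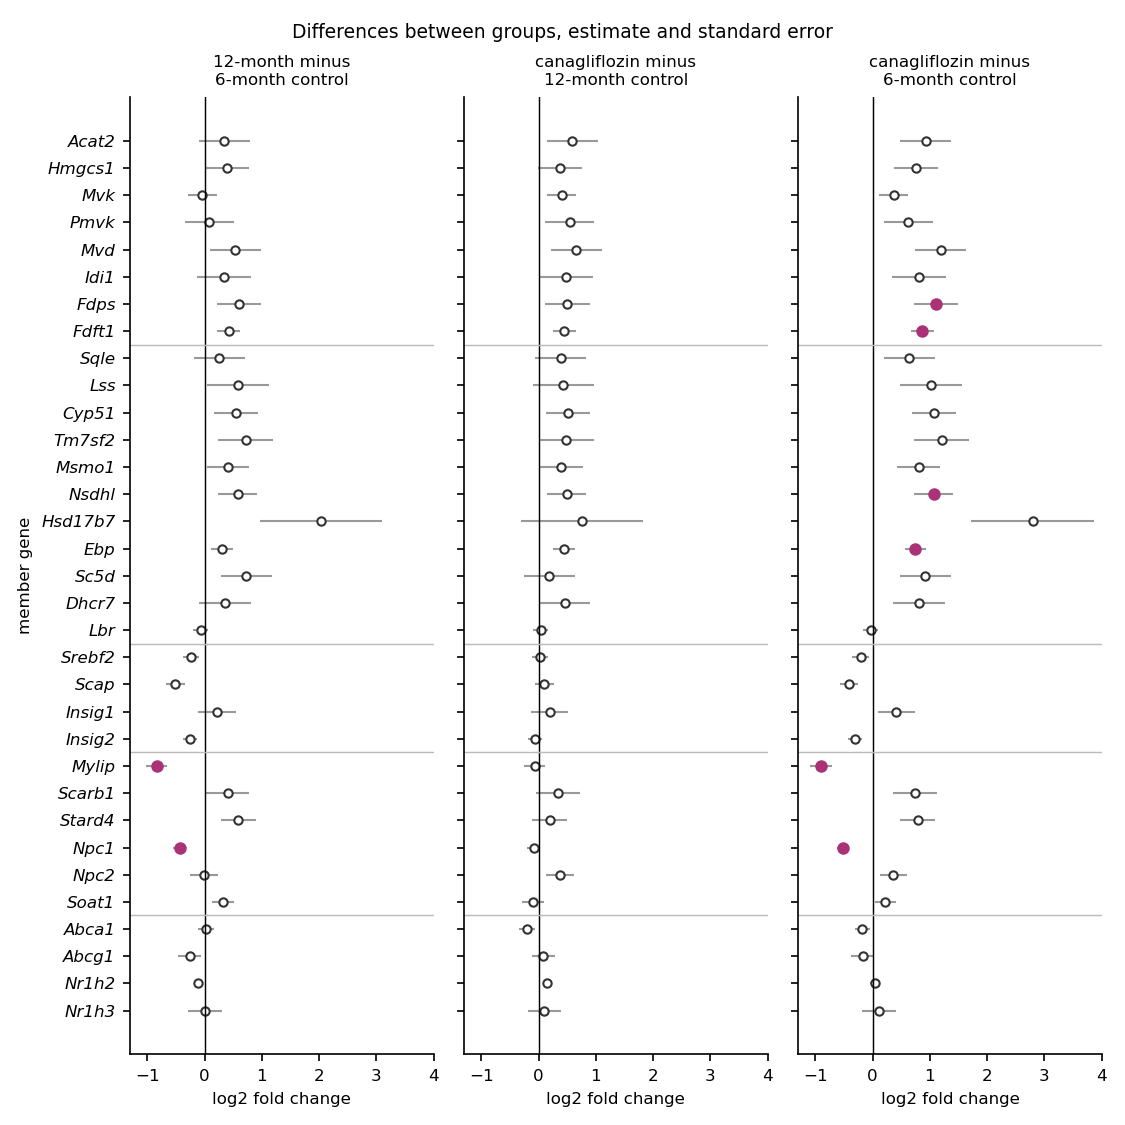
Log2 fold change of each member (rows, by step) in the 3 comparisons (panels) from limma, on the log2(value + 1) scale, with lines for 1 SE to each side and filled points for an adjusted p under 0.05. Most enzymes lie right of 0 with wide errors, and Mylip and Npc1 are filled and left of 0 in both comparisons with the 6-month controls.

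The age comparison sets the 12-month controls against the 6-month controls. Whether their RNA was extracted together is not stated in the labels, so age and extraction may not be separable here. Mylip and Npc1 fell, and no enzyme was called. Of 33 members 0 were called higher, against 5.4% of all genes, and 2 lower, against 7.01%. Groups did not overlap for 0 members higher (5.63% of genes) and 2 lower (8.07%). These shares are near the background and single out 2 genes, not the list. Mylip, the ubiquitin ligase that an LXR signal raises, measured 201, 143, 129, 217 and 191 at 12 months and 271, 368, 271, 350.2 and 295 at 6 months. Every older mouse lay below every younger one. The mean went from 311 ± 45.3 to 176 ± 38.6 (SD, n = 5), a log2 change of -0.83 (SE 0.18, limma adjusted p = 0.0081). It was called in all 25 other fits, with adjusted p from 0.00032 to 0.0258.

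Npc1, which moves cholesterol out of late endosomes, measured 793, 823, 875, 730.2 and 941 at 12 months and 1345, 974.8, 1025, 1120.0 and 1165 at 6 months. All older mice were again below all younger ones, but the nearest values, 941 and 974.8, lie close. The log2 change was -0.43 (SE 0.11, limma adjusted p = 0.0189). The call was lost without 12-month control replicate 4 and without 6-month control replicate 1, and over 25 other fits its adjusted p ran from 0.0043 to 0.0537. Scap measured 7658, 5262, 5580.0, 4426 and 5557 at 6 months, against the 12-month values given above. Its change of -0.51 (SE 0.16) missed the threshold (limma adjusted p = 0.0505), and 9 of 25 other fits called it. The groups overlapped because 6-month replicate 4 lay below the 2 highest older mice.

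Insig2 measured 436, 339, 336, 328 and 417 at 12 months and 409.5, 499.7, 397, 511 and 401 at 6 months, a log2 difference of -0.26 (limma adjusted p = 0.185). The enzymes had higher means with age in 17 of 19, with a median log2 difference of 0.41, and 0.26 without 12-month control replicate 3. Fdft1 at 6 months measured 1492, 952, 810.4, 1245 and 1490.1, which gave 0.42 (limma adjusted p = 0.200). Fdps measured 4709.6, 2089.9, 7434, 2422 and 6646 at 12 months and 3054, 2941, 1654, 2736 and 3563 at 6 months, with 0.60 (limma adjusted p = 0.340). The older mice were split, with replicates 1, 3 and 5 above all younger mice and replicates 2 and 4 within their range. Nsdhl at 6 months measured 882, 486, 389.6, 636 and 711, with 0.58 (limma adjusted p = 0.304). Hsd17b7 had the widest difference, 2.04, but its interval ran from -0.26 to 4.33 (limma adjusted p = 0.239).

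No efflux gene was called with age. Abcg1 measured 245, 179, 106, 198 and 184 at 12 months and 194, 184, 256, 200.1 and 229 at 6 months (log2 difference -0.26, limma adjusted p = 0.428). Nr1h2 at 6 months measured 1285, 1459.9, 1554, 1395 and 1405, with -0.11 (limma adjusted p = 0.396). Abca1 at 6 months measured 2133, 2357, 2862, 1724 and 2044, with 0.02 (95% interval -0.27 to 0.31). Groups of all 3 genes overlapped.

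**Figure D4:**
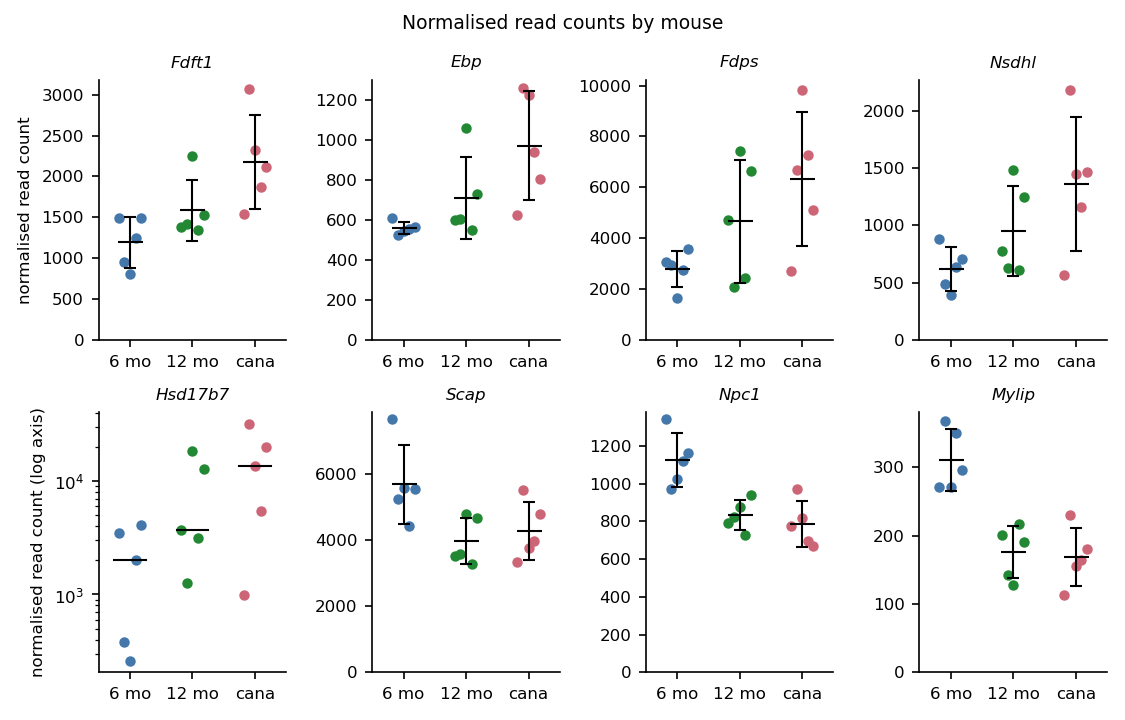
Size-factor-normalised reads of 8 members in each mouse of the 3 groups (cana, canagliflozin at 12 months), with points for mice and lines for the group mean and SD, except Hsd17b7, on a log axis with a line for the median. Mylip and Npc1 of the 6-month controls lie above both 12-month groups, and Hsd17b7 spans 261 to 31815.

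The treated mice were also set against the 6-month controls, a comparison that differs in age and drug together and shares its controls with the age comparison. Extraction may differ in it as well. Here 4 enzymes rose and 2 genes of uptake and storage fell. Of 33 members 4 were called higher, against 13.5% of all genes, and 2 lower, against 14.9%. Groups did not overlap for 2 members higher (8.05% of genes) and 2 lower (10.4%). The share that rose is near the background and the share that fell below it. All 4 that rose are synthesis genes, where the median log2 difference over 19 was 0.87. Fdft1 rose from 1198 ± 310.1 to 2182 ± 574 (SD, n = 5), a log2 change of 0.87 (SE 0.21, limma adjusted p = 0.0057). Every treated mouse lay above every 6-month control.

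Ebp at 6 months measured 609, 525, 546, 558 and 565, a narrow range below all 5 treated mice. Its log2 change was 0.75 (SE 0.19, limma adjusted p = 0.0086). Fdps measured 2731, 6698, 9809, 7257 and 5123 with the drug, a log2 change of 1.10 (SE 0.39, limma adjusted p = 0.0457). Nsdhl changed by 1.06 (SE 0.34, limma adjusted p = 0.0321). For both genes canagliflozin replicate 1 fell inside the range of the 6-month controls, and the other 4 treated mice lay above it. Fdft1 and Ebp were called in all 25 other fits, Nsdhl in 16 and Fdps in 12.

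Mylip measured 113, 231, 156, 165 and 180.1 with the drug, all below the 6-month controls, a log2 change of -0.90 (SE 0.18, limma adjusted p = 0.0021). Npc1 measured 775, 974.3, 819, 697 and 672, all below the 6-month controls, though replicate 2 lay under the lowest of them, 974.8, by less than 1 read. It had a log2 change of -0.52 (SE 0.11, limma adjusted p = 0.0031). Both were called in all 25 other fits. Against the 12-month controls the same treated mice differed by -0.07 for Mylip (95% interval -0.46 to 0.32) and -0.09 for Npc1 (-0.33 to 0.15).

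Several enzymes lay just outside the threshold, with limma adjusted p of 0.0520 for Cyp51, the lanosterol demethylase, 0.0591 for Mvd, 0.0654 for Hsd17b7 and 0.0725 for Tm7sf2. Leaving out canagliflozin replicate 1, the treated mouse with low enzymes, raised the count of called members from 6 to 18, 16 of them higher. In that fit 4207 of 17569 genes were called in all, against 4982 with all mice. Leaving out canagliflozin replicate 2 gave 7 members, beside 5147 of 17569 genes in all. Of the 7, Ebp and Fdft1 were higher and Insig2, Mylip, Npc1, Scap and Srebf2 lower. Insig2 measured 305, 445, 328, 342 and 367 with the drug, and its change of -0.31 (limma adjusted p = 0.0660) and that of Scap, -0.41 (limma adjusted p = 0.0694), missed the threshold with all mice. Of the exporters neither was called, and Abca1 and Abcg1 each stood at -0.18 (limma adjusted p = 0.336 and 0.531), Abcg1 with 164, 238, 138, 189 and 222 in the treated mice.

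Insig1, a target of SREBP2, was set beside 32 other members and 11 marker scores over the 15 libraries with group means removed. It was chosen after the values were seen, so these 43 correlations are a description and carry no p. Idi1, the isomerase of isopentenyl diphosphate, was closest, with Pearson r = 0.97 and Spearman rho = 0.94. Without canagliflozin replicate 1 and 6-month control replicate 3, the libraries farthest from the median of Insig1, its r was 0.95. The 19 enzymes ran from that value down to 0.55 for Mvk. Hsd17b7 stood at 0.96, Lss at 0.94, and Mvd and Hmgcs1 at 0.93, while Dhcr7 stood at 0.69, Ebp at 0.65 and Lbr at 0.61. Among uptake and storage genes Stard4 had r = 0.92, Npc2 0.82, Soat1 0.81 and Scarb1 0.79, which became 0.84, 0.79, 0.80 and 0.61 without those 2 mice. Npc1 had 0.43, and Mylip 0.30 with all mice and -0.17 without the 2. Of the other controllers Srebf2 had r = 0.69 (0.48 without the 2 mice), Scap 0.59 and Insig2 0.32. The efflux genes had weak correlations: Abca1 had r = -0.13, Abcg1 -0.10 (Spearman rho 0.014), Nr1h2 -0.29 and Nr1h3 -0.24.

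**Figure D5:**
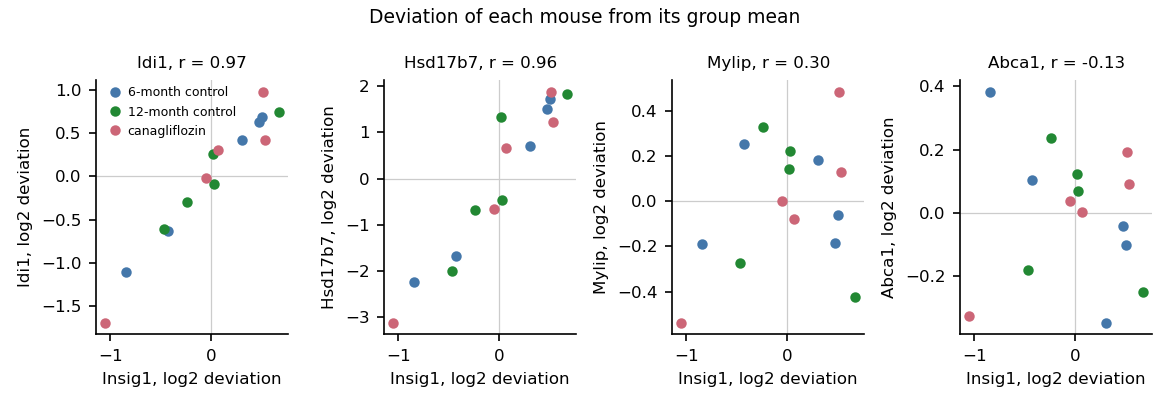
Deviation of each of 15 mice from its group mean on the log2(value + 1) scale, with Insig1 on the x axis and Idi1, Hsd17b7, Mylip or Abca1 on the y axis, 1 point per mouse and colours for groups. Idi1 and Hsd17b7 lie along a line with Insig1 (r = 0.97 and 0.96), and Mylip and Abca1 scatter (r = 0.30 and -0.13).

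Cell markers were read beside these results, as the mean of log2(value + 1) over each list, given for the canagliflozin group, the 12-month and the 6-month controls in that order. The 11 corpus luteum markers ran from 12.9 to 14.2, 13.0 to 13.9 and 12.6 to 13.6, and none was at 0. In treated mice against 6-month controls 2 of them were called higher and 1 lower in limma, against 13.5% and 14.9% of all genes. Their score had r = 0.57 with Insig1 and 0.17 without the 2 mice named above. The 11 endothelial markers had r = 0.58 and 0.29, and the red cell markers, 5 of 7 tested, 0.42 and 0.55. Red cell scores ran from 7.38 to 9.61, 4.68 to 10.9 and 6.49 to 7.86, and the 12-month control with the highest enzymes, replicate 3, had the highest.

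Other marker lists also differed in mean between the groups. Means here are of log2(value + 1). For the drug at 12 months all 9 surface epithelium markers had a higher mean (median log2 difference 0.52) and all 5 red cell markers (1.19). The unlogged means of all 5 red cell markers were lower with the drug, as for Hbb-bs with 1096 against 1594. In the 12-month controls Hbb-bs ran from 52.4 to 6144. Of 11 endothelial markers 10 had a higher mean (median 0.22), with groups apart and higher for 2, against 0.586% of all genes. Of 12 macrophage markers 0 had a higher mean (median -0.35), and of 9 theca and interstitial markers 1 (median -0.32). None of these markers was called in that comparison. With age 6 of 8 fat cell markers were called higher, against 5.4% of all genes, with a median log2 difference of 2.41. In treated mice against 6-month controls 5 of them were called higher and 1 lower, against 13.5% and 14.9% of all genes. Their scores ran from 4.60 to 6.56, 4.76 to 7.35 and 3.90 to 4.42, so both older groups lay above the 6-month controls, with Adipoq, Retn and Cidec at 0 in at least 1 library. Macrophage scores, over 12 markers, ran from 6.89 to 7.76, 6.95 to 8.06 and 7.66 to 8.39. Of these markers 2 were called lower with age (7.01% of all genes) and 4 in treated mice against 6-month controls (14.9%). Other markers called lower with age were 3 of 9 for smooth muscle and pericytes, 2 of 11 for endothelium and 1 of 9 for theca and interstitial cells. Called higher with age were 2 of 11 granulosa, 1 of 11 corpus luteum and 1 of 9 surface epithelium markers. The fat cell scores of both older groups reached the smallest p that 5 libraries against 5 can give (exact permutation p = 0.0079), and adjusted over 33 tests that is 0.131, so single scores could hardly pass. The part of these cell types in the members' differences was not tested.

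Neighbouring genes of the pathway, in 6 lists, gave no call for the drug at 12 months in limma. Their counts with age stand against 5.4% of all genes called higher and 7.01% lower. With age, Lrp1, a lipoprotein receptor, fell by 0.94 on the log2 scale, from 17637 ± 896 to 9331 ± 1813 (SD, n = 5; limma adjusted p = 0.0018). In the same list of 14 receptors and carriers Cd36, a scavenger receptor, rose by 0.72 and Gramd1c, a sterol carrier, by 0.62 (limma adjusted p = 0.0202 and 0.0179). Of 11 genes of oxysterols, LXR partners and transporters 3 fell: Rxra, the partner of LXR, by 0.65, Abcg4 by 0.88 and Rxrb by 0.29 (limma adjusted p = 0.00049, 0.0063 and 0.0175). Lipa, which frees cholesterol from esters in lysosomes, fell by 0.56 (limma adjusted p = 0.0455), 1 of 5 genes of ester breakdown. Srebf1, which encodes SREBP1, fell by 0.46 and Fasn, fatty acid synthase, by 0.60 (limma adjusted p = 0.0144 and 0.0102), 2 of 10 fatty acid genes. In the isoprenoid branch of 6 genes Pggt1b, a prenyltransferase subunit, rose by 0.62 and Dhdds fell by 0.31 (limma adjusted p = 0.00051 and 0.0435), and 0 of 7 genes of SREBP cleavage were called.

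Against the 6-month controls the treated mice gave further calls, beside 13.5% of all genes called higher and 14.9% lower. Rxra fell by 0.97, Abcg4 by 1.15, Cyp7b1, an oxysterol hydroxylase, by 0.64 and Rxrb by 0.24 (limma adjusted p = 1.2e-05, 0.00046, 0.0316 and 0.0230). Lipa fell by 0.90 (limma adjusted p = 0.0014), with every treated mouse below every younger control. Of the 7 SREBP cleavage genes Mbtps1, the first protease that cuts SREBP, fell by 0.46 and Rnf139 by 0.33, and Aup1 rose by 0.38 (limma adjusted p = 0.0015, 0.0145 and 0.0090). Acaca, acetyl-CoA carboxylase, rose by 0.70, Fasn fell by 0.67 and Srebf1 by 0.39 (limma adjusted p = 0.0027, 0.0023 and 0.0178). Among receptors and carriers 2 rose and 3 fell, led by Lrp1, which fell by 0.88, and Gramd1c, which rose by 0.74 (limma adjusted p = 0.0010 and 0.0031). Osbpl2 fell by 0.35 and Lrpap1 by 0.25 (limma adjusted p = 0.0127 and 0.0156). Pggt1b rose by 0.80 and Dhdds fell by 0.30 (limma adjusted p = 3.3e-05 and 0.0284).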

How the data were processed

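Polyadenylated RNA of 15 whole ovaries, 3 groups of 5, was sequenced from directional libraries, per the labels' protocols. The deposited table holds a signal per gene and library: judged by its values, the authors' reads over a size factor of each library. The submitters' processing notes name Partek 11.0 and mm39. Aligner, counter and normalisation were not given in the sources used here. Whole reads were recovered, at least 99.99% of values within 0.1 of a read, though in 3 libraries (canagliflozin replicates 4 and 5, 6-month control replicate 5) the step is close to 1 and cannot be told from rounding. The recovered 8.47 to 13.6 M reads far exceed the depth in the labels, and the cause was not resolved.

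As the deposited signal is no count, log2(value + 1) was tested with limma 3.58.1 (R 4.3.3, trend and robust) on all 15 libraries in 1 fit, for genes of at least 10 in at least 5 libraries. P-values were adjusted over all 17569 genes by Benjamini-Hochberg, and a call is an adjusted p under 0.05. A change on this scale understates that of low genes. P-values compare a difference between groups with the spread between libraries labelled as replicates. The labels do not describe the 6-month extraction. If it was done apart, an effect of extraction cannot be told from age in either comparison with the 6-month controls. Exon lengths for levels per kb were the union of the exons of a gene's protein-coding transcripts. They came from GENCODE M21, an annotation of another build. Marker scores are means of log2(value + 1) and were compared by exact two-sided permutation over 252 arrangements.

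Per-library values are given, for each comparison and step, for called members (at most 4), or with none called the 2 of smallest p, and for members whose groups do not overlap. Other pathway genes are named where called, at most 4 per list and comparison. Members and lists were chosen with earlier results of these data known. Of 194 list genes 2 were not matched by symbol. Alternatives were edgeR 4.0.16 and DESeq2 1.42.0 on recovered reads, TMM rescaling, pseudocounts of 0.5 and 5, other filters, an adjusted p under 0.1, only the groups compared, a replicate block, and each library left out. A fit without 2 libraries, canagliflozin replicate 2 and 12-month control replicate 3, was added after seeing the data. The test was also tested on simulated data. For the drug at 12 months it called 36% of 50 genes changed 1.5-fold and 52% of 50 changed 2-fold. Those genes were drawn from all 17569, and the enzymes spread more between mice than most genes.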

Additional observations from a re-analysis of the deposited data

Results flagged for a closer look

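Fdft1 in 12-month control replicate 3 stood apart from its group at 2248, where the next value was 1535 and the lowest 1352. Its gap to the next value was 0.795 of the group's range, above the limit of 0.71 for 5 samples. It was the only such value among the 99 groups of 5 tested for the 33 members. Chance gives such a value in about 1 group in 20, so 1 of 99 is no more than chance gives. In this mouse 16 of 19 enzymes were the highest of their group.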

How the results depend on the processing

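For canagliflozin against 12-month controls 0 members were called in every fit run, with the synthesis median between 0.27 and 0.77 as each library was left out. For age the count of 2 ran from 1 to 3 as each library was left out, with 1 without 12-month control replicate 4 or 6-month control replicate 1. Over all 17569 genes 2179 were called for age in the main fit, and 1537 to 2403 as each library was left out. For canagliflozin against 6-month controls the count of 6 became 12 with DESeq2 on recovered reads and 13 at an adjusted p under 0.1. It ran from 4 to 18 as each library was left out, with 18 without canagliflozin replicate 1. Over all 17569 genes 4982 were called in the main fit, 5769 with DESeq2 and 3930 to 5320 as each library was left out. The share of all genes at an adjusted p under 0.1 is not given here. With a replicate block the counts of members were 0 for the drug, 2 for age and 4 for canagliflozin against 6-month controls, where Fdps and Nsdhl were lost. Over all genes that fit called 3, 2126 and 4912 in the same order. The numbers do not pair the mice: deviations of same-numbered libraries correlated between -0.298 and 0.249 (median -0.034, 15 pairs) and those of others between -0.433 and 0.376 (median -0.0014, 60 pairs).

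Outside the fits that left out 1 library, 5 single differences reversed sign. Without canagliflozin replicate 2 and 12-month control replicate 3 the drug difference was -0.13 for Srebf2 and -0.19 for Abcg1, and the age difference of Pmvk was -0.23. For Npc2 with age edgeR gave 0.019 and DESeq2 0.018. As each library was left out, these uncalled differences crossed 0. For the drug Lbr ran from -0.091 to 0.12, Sc5d from -0.011 to 0.55, Insig2 from -0.14 to 0.0054, Srebf2 from -0.10 to 0.11 and Soat1 from -0.26 to 0.041. Mylip ran from -0.19 to 0.066, Nr1h3 from -0.14 to 0.26 and Abcg1 from -0.10 to 0.20. For age Pmvk ran from -0.23 to 0.36, Mvk from -0.22 to 0.093, Lbr from -0.16 to 0.054, Npc2 from -0.13 to 0.13, Nr1h3 from -0.13 to 0.16 and Abca1 from -0.063 to 0.12. Against 6-month controls Lbr ran from -0.085 to 0.010 and Nr1h3 from -0.13 to 0.27. The cause was not tested. Among enzymes the median SD between mice was 0.74 on the log2 scale, and the share of counting error in it was not tested. The lowest value of any member in any library was 106.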

Other observations

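Lhcgr, the luteinising hormone receptor of luteal, theca and preovulatory granulosa cells, measured 2310, 21847, 2704, 4320 and 10543 in canagliflozin replicates 1 to 5. It measured 4867, 3170, 9601, 5003 and 10401 in the 12-month controls and 7130, 2435, 1913, 2901 and 6421 in the 6-month controls. Canagliflozin replicate 2, with the highest Lhcgr of all 15 mice, also had the highest value of 11 of 19 enzymes, and 6-month control replicate 3, with the lowest Lhcgr, had the lowest of 12. Canagliflozin replicate 3 goes the other way, with low Lhcgr and high enzymes. Lhcgr is 1 of the 11 corpus luteum markers, which did not all go with it. In canagliflozin replicate 2 Cyp11a1 was the highest of its group at 124330 and Akr1c18 the lowest at 12829. Replicate 3 of the 12-month controls had high Lhcgr and enzymes, but Akr1c18 at 553, the lowest of all 15. The score of the 11 markers was 14.17 in canagliflozin replicate 2, 13.01 in 12-month control replicate 3 and 12.61 in 6-month control replicate 3. Lhcgr was picked after its values were seen, and the relation was not tested.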
